A study of Mus musculus with 4 samples.

Results

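Cholesterol genes were compared between plasmacytoid dendritic cells (pDCs) that lack Flt3 and their wild-type counterparts. The set held 31 genes chosen by function: enzymes of sterol synthesis, the SREBP control system, and genes of sterol uptake, transport and efflux. A gene was measured where a probe set of the array was annotated to that gene symbol and to no other. This gave 28 of the 31 genes, out of 19938 genes measured in all, and 999 of the 19938 had more than 1 such probe set. Acat2, Nr1h2 and Soat1 had no probe set of this kind in the annotation used here and were not analysed.

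The study measured 4 samples of mature pDCs on whole-transcript GeneChip arrays, 2 from Flt3 KO and 2 from WT mice. All mice were at steady state, and the cells were sorted from spleens digested with Collagenase B and DNAse 1. Neither the allele behind the Flt3 KO label nor the strain, age or sex of the mice, nor any pooling of animals, is given in the sources used here. The replicates are called biological, but whether each was a separate animal is not stated, so the p-values measure the spread between these samples. The product of Flt3 is the receptor through which the cytokine FLT3 ligand promotes dendritic cell development.

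Cholesterol is built from acetyl-CoA through mevalonate, farnesyl diphosphate, squalene and lanosterol. When sterols are scarce, SCAP escorts the SREBP transcription factors from the endoplasmic reticulum (ER) to the Golgi, where they are cleaved and set free to switch on the synthesis genes; INSIG proteins hold SCAP back when sterols are plentiful. When sterols are in excess, oxysterols activate the LXR nuclear receptors, which switch on the exporters ABCA1 and ABCG1 and the ubiquitin ligase gene Mylip.

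Values are log2 of the deposited intensity. A level is not comparable between probe sets, so comparisons are made within a gene. The Flt3 probe set read 8.46 and 8.61 in Flt3 KO cells, against 10.71 and 10.77 in WT cells. Flt3 fell by 2.21 (SE 0.066, limma adjusted p = 7.4e-05), as the genotype labels imply. All 11 pDC markers measured lay at 9.54 or above on average in Flt3 KO cells, with Siglech at 12.52, Bst2 at 12.85 and Tcf4 at 12.21. At a limma adjusted p under 0.05, 6 of these 11 markers fell and 0 rose, against 1.31% and 1.08% of all genes. Those that fell, by 0.25 to 0.49, were Irf8, Irf7, Tlr7, Ccr9, Ly6d and Spib. Siglech, Bst2, Tcf4, Tlr9 and Pacsin1 did not pass. Before adjustment 9 of the 11 were lower and 0 higher in limma, against 10.1% and 6.95% of all genes. All 11 differences were negative, as were 65.2% of those of the 4985 brightest genes, which include these 11. All 6 calls were lost without the intensity trend, and Irf7 lay at the edge of the threshold (limma adjusted p = 0.049995). With all probe sets tested 3 of the 6 calls were kept (Tlr7, Ccr9 and Spib). Quantile normalization, 16 added before log2 and the replicate number as a block each kept 5. With any single array left out, the 6 differences stayed between −0.54 and −0.21. Such a fit keeps 1 sample in a group and made few calls over the whole array, so it cannot decide whether a call holds. Of 16 markers of monocytes and macrophages 5 rose (Cd14, Ccr2, Cx3cr1, Lyz2 and Fn1, by 0.51 to 1.08) and 0 fell. Before adjustment 9 of the 16 were higher and 0 lower in limma, against 6.95% and 10.1% of all genes. The summed intensity of the 16 markers was 12.50 and 12.87 in the Flt3 KO replicates and 12.33 and 12.21 in the WT replicates on the log2 scale. Of these 5 calls, 2 were kept without the intensity trend (Ccr2 and Fn1), and all but Lyz2 with all probe sets tested. With an array left out the 5 differences lay between 0.42 and 1.35. An array has no true zero, and 14 of the 16 markers lay above 5.89, the median of all genes. Of 6 plasma cell markers, Jchain rose by 1.20 (limma adjusted p = 0.0095). Mzb1 fell by 0.53 (limma adjusted p = 0.036) and Xbp1 by 0.25 (limma adjusted p = 0.042). Without the intensity trend, and with all probe sets tested, only the Jchain call was kept. The replicate number as a block kept Jchain and Mzb1. Of 9 conventional dendritic cell markers Flt3 alone was called, while 3 were higher and 2 lower before adjustment, Flt3 among the lower ones. Markers of T and NK cells had 0 of 6 called by limma, though all 6 differences were positive and 3 were higher before adjustment (median 0.24; Cd3e was the brightest). B cell, erythroid and cycling markers had 0 of 7, 0 of 3 and 0 of 7 called by limma, with 1 higher and 1 lower among the B cell markers before adjustment and 0 in the other lists. The brightest genes of the other lists did not pass: Cd68 of macrophages (−0.11), H2-Ab1 of conventional dendritic cells (−0.082), Cd79b of B cells (−0.25), Alas2 of erythroid cells (0.0077) and Pcna of cycling cells (−0.071). The part of these markers in the results below was not tested. In bulk RNA, a change in the number of cells of a type and a change in RNA per cell cannot be told apart.

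Most cholesterol genes differed little between the genotypes, and a single one passed the test. At a limma adjusted p under 0.05 over all 19938 genes, 1 of the 28 genes fell, the exporter gene Abcg1, and 0 rose, while 27 did not pass. Over the whole array 2.39% of genes were called, 1.08% higher and 1.31% lower in Flt3 KO cells, so the share of 3.57% among the cholesterol genes is near the background. With no adjustment of limma's p for multiple testing, 9 of 28 were lower and 1 was higher at the same threshold, against 10.1% and 6.95% of all genes. Over the alternatives that kept all 4 arrays this count ran from 4 to 10 lower and from 0 to 3 higher. It was 10 and 0 after centring on array medians, 4 and 3 under quantile normalization, and 4 and 2 without the intensity trend. The median difference of the 28 genes was −0.078, beside −0.0010 over all genes. Of the 28, 20 had a negative difference, or 71.4%, against 50.3% of all genes. All but Ch25h lay above the median level of all genes. Among the 9969 genes above it, 60.5% were negative, with a median of −0.037. Before adjustment 17.1% of these 9969 genes were lower and 8.47% higher.

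**Figure D1:**
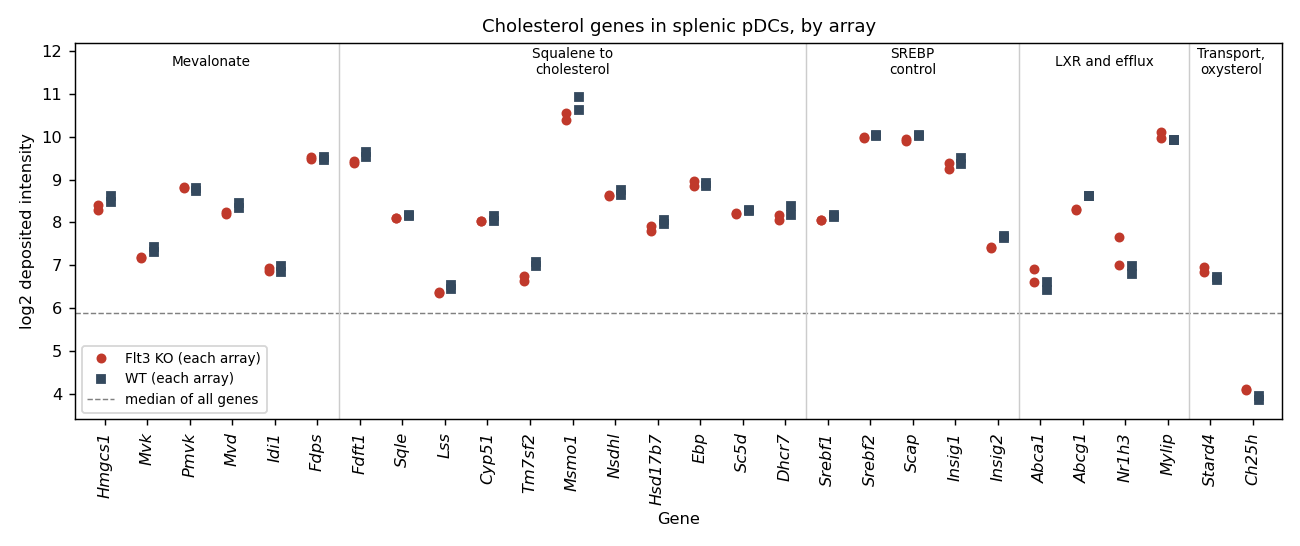
The log2 deposited intensity (vertical axis) of each of the 28 measured cholesterol genes on each array, with Flt3 KO arrays as circles left of the WT arrays as squares and genes grouped by role. Flt3 KO points of Abcg1 (8.30 and 8.32) sit clearly below its WT points (8.63 and 8.61), a single Flt3 KO array stands out for Nr1h3, and Ch25h alone lies below 5.89, the median of all genes (dashed line). Levels of different genes are not comparable.

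The synthesis genes are known SREBP targets, so the DNA upstream of their starts is shown for 3 of them: Hmgcs1, the entry step measured here, and Msmo1 and Tm7sf2, whose differences were the most negative among the enzymes. The 250 bases before the start, from RefSeq on GRCm38.p6, are written 5′ to 3′ in the direction of the gene. Capitals mark 3 motifs on either strand: TCACCCCAC, a sterol regulatory element core, CCAAT, the NF-Y box (ATTGG on the other strand), and GGGCGG, the Sp1 GC box (CCGCCC on the other strand).
Hmgcs1, chr13:119690101-119690350, plus strand: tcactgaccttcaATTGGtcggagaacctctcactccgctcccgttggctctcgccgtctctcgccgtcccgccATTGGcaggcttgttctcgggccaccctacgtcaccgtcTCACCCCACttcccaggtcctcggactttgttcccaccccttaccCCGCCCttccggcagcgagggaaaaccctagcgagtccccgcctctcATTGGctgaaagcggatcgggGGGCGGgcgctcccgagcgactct
Msmo1, chr8:64733579-64733828, minus strand: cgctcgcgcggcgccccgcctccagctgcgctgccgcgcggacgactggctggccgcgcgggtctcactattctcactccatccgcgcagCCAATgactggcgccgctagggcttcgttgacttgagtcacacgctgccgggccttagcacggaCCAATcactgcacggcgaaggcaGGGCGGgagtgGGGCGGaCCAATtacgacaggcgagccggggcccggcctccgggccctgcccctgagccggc
Tm7sf2, chr19:6067851-6068100, minus strand: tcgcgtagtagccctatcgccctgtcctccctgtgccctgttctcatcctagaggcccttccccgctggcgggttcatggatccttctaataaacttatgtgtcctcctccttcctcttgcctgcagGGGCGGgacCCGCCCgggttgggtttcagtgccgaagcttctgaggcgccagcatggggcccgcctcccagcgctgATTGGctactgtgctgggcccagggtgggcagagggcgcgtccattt
The sterol element core starts 137 bases before the start of Hmgcs1 and is not in the other 2 windows. Hmgcs1 and Msmo1 hold 3 CCAAT boxes each and Tm7sf2 holds 1, and each of the 3 windows holds 2 GC boxes.

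Promoter windows were matched for 23 of the 28 measured genes, 14 of them enzymes. Abcg1, Fdps, Fdft1, Sqle and Stard4 were not matched. All 14 enzyme promoters held a CCAAT box, against 38.8% of the promoters of 15614 measured genes, and 13 held a GC box, against 49.3%. The exact sterol element core was in 1 of the 14, Hmgcs1, and in 0.589% of all these promoters. A gene with several annotated starts counted if any window held the letters, and a match describes the letters only. Outside the enzymes, Scap, Abca1, Nr1h3 and Ch25h had no CCAAT box in this window.

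Among the 17 measured synthesis enzymes 0 were called in either direction by limma, while 6 (35.3%) were lower and 0 higher before adjustment. The alternatives that kept all 4 arrays gave 2 to 7 lower and 0 higher, with 2 under quantile normalization and without the intensity trend. Their median difference was −0.13, with 14 of 17 negative. Brighter genes leaned lower in Flt3 KO cells across the whole array: the 7923 genes within the enzymes' range of levels had a median of −0.047, 63.7% of them were negative, and 18.7% were lower before adjustment. The enzymes' median relative to the WT mean was −0.087 in Flt3 KO replicate 1 and −0.097 in Flt3 KO replicate 2. The median level of the same enzymes was 8.19 and 8.21 on the Flt3 KO arrays, against 8.34 and 8.26 on the WT arrays. Taken within each gene, WT replicate 1 exceeded WT replicate 2 by a median of 0.025. That median joins gaps of opposite sign, −0.059 in the mevalonate segment and 0.10 from squalene to cholesterol.

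**Figure D2:**
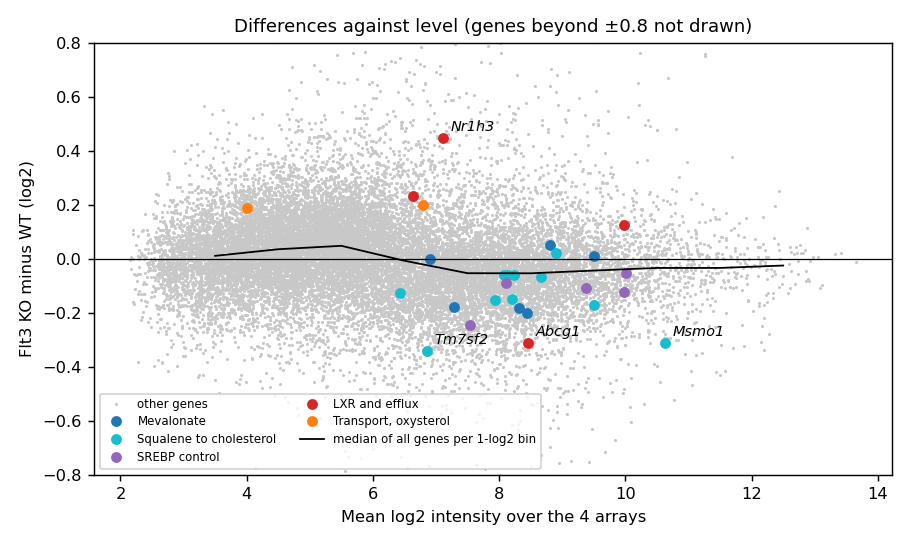
The difference Flt3 KO minus WT (log2, vertical axis) against the mean log2 intensity over the 4 arrays (horizontal axis) for all genes in grey and the 28 cholesterol genes in colour by role. The black line is the median of all genes per level bin; it lies slightly below 0 for brighter genes, and most synthesis enzymes lie below the line, with a median of −0.13.

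In the mevalonate segment, 4 of 6 genes had negative differences and the median was −0.091. Hmgcs1, the HMG-CoA synthase that precedes mevalonate, read 8.40 and 8.29 in Flt3 KO cells, against 8.63 and 8.47 in WT cells. Mvk, the mevalonate kinase, read 7.17 and 7.20 in Flt3 KO cells and 7.42 and 7.31 in WT cells. Mvd, the decarboxylase that makes isopentenyl diphosphate, read 8.19 and 8.25 in Flt3 KO cells and 8.34 and 8.46 in WT cells. For these 3 genes the arrays of the genotypes did not overlap, and the Flt3 KO values were the lower ones. That was so for 25.3% of all genes and 39.8% of the 7923 genes in the enzymes' range of levels. The differences of Hmgcs1, Mvk and Mvd were −0.20 (SE 0.079), −0.18 (SE 0.076) and −0.18 (SE 0.070). Their limma adjusted p-values were 0.26, 0.29 and 0.26, so none passed. The Hmgcs1 difference was −0.12 without WT replicate 1 and −0.28 without WT replicate 2.

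The other mevalonate genes lay at or near 0. Pmvk, the kinase between Mvk and Mvd, read 8.82 and 8.84 in Flt3 KO cells and 8.74 and 8.81 in WT cells, a difference of 0.051 (95% interval −0.090 to 0.19). The isomerase gene Idi1 read 6.87 and 6.95 in Flt3 KO cells and 6.84 and 6.99 in WT cells. Fdps, which makes farnesyl diphosphate, read 9.48 and 9.53 in Flt3 KO cells and 9.47 and 9.52 in WT cells. The groups overlapped for both, with intervals of −0.20 to 0.20 for Idi1 and −0.12 to 0.14 for Fdps. A second, dimmer Idi1 probe set had a difference of 0.032.

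From squalene to cholesterol, 10 of 11 genes had negative differences, with a median of −0.13. Over the same 11 genes WT replicate 1 exceeded WT replicate 2 by a median of 0.10, so the spread between WT arrays was of similar size. Fdft1, the squalene synthase that commits farnesyl diphosphate to sterols, read 9.39 and 9.44 in Flt3 KO cells and 9.64 and 9.52 in WT cells. Its difference was −0.17 (SE 0.061, limma adjusted p = 0.22), and a second probe set gave −0.22. Sqle, the squalene epoxidase and a rate-limiting enzyme, read 8.10 in both Flt3 KO replicates and 8.15 and 8.18 in WT cells, a difference of −0.060 (95% interval −0.21 to 0.087). Lss, the lanosterol synthase, read 6.37 and 6.36 in Flt3 KO cells and 6.44 and 6.53 in WT cells. The Flt3 KO arrays lay below the WT arrays in all 3 genes, and none passed. Among the 7923 genes in the enzymes' range of levels, 39.8% lay lower without overlap, against 25.3% of all genes.

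Tm7sf2 had the most negative difference of the 28 genes. It encodes a sterol reductase that acts after lanosterol demethylation, a step it shares with the lamin B receptor. Tm7sf2 read 6.74 and 6.62 in Flt3 KO cells and 6.97 and 7.08 in WT cells. The groups did not overlap, and the difference was −0.34 (SE 0.085, limma unadjusted p = 0.0045, adjusted p = 0.10). Msmo1, the methylsterol oxidase, read 10.55 and 10.39 in Flt3 KO cells and 10.94 and 10.63 in WT cells. Its difference of −0.31 (SE 0.10, limma adjusted p = 0.19) ranged from −0.47 without WT replicate 2 to −0.15 without WT replicate 1. The 2 WT arrays of Msmo1 were thus about as far apart as the genotypes. Their promoters, shown above, share the CCAAT and GC boxes with most other enzymes.

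Cyp51, the lanosterol demethylase, read 8.04 in both Flt3 KO replicates and 8.16 and 8.04 in WT cells, and the groups met at the lower WT value. Nsdhl, a sterol dehydrogenase of the demethylation complex, read 8.64 and 8.61 in Flt3 KO cells and 8.75 and 8.64 in WT cells. Hsd17b7, its ketoreductase partner, read 7.80 and 7.91 in Flt3 KO cells and 8.06 and 7.96 in WT cells. Their differences were −0.059, −0.068 and −0.15, and the groups overlapped for Cyp51 and Nsdhl.

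Ebp, the sterol isomerase, was the exception in sign, with 8.86 and 8.97 in Flt3 KO cells and 8.85 and 8.93 in WT cells. Sc5d, a sterol desaturase, read 8.20 and 8.21 in Flt3 KO cells and 8.28 and 8.26 in WT cells. Dhcr7, a late-acting reductase, read 8.19 and 8.06 in Flt3 KO cells and 8.38 and 8.17 in WT cells. The differences of Ebp, Sc5d and Dhcr7 were 0.022, −0.061 and −0.15, with limma adjusted p-values of 0.91, 0.68 and 0.45, and only Sc5d had groups that did not overlap. The Dhcr7 difference ranged from −0.25 without WT replicate 2 to −0.045 without WT replicate 1.

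**Figure D3:**
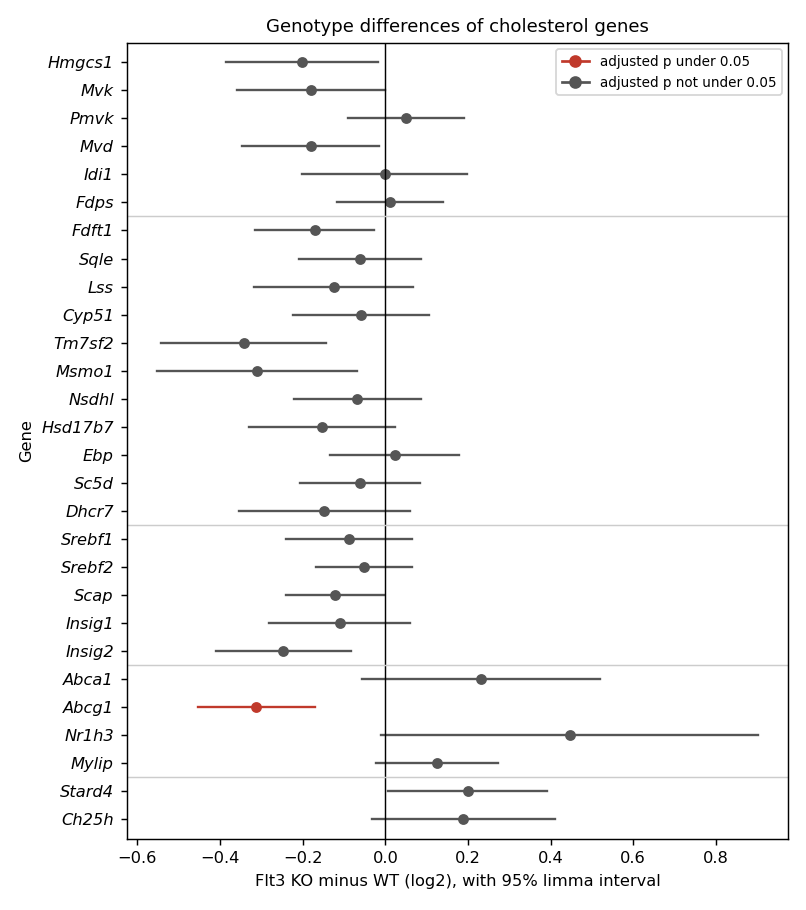
The difference Flt3 KO minus WT (log2, horizontal axis) with its 95% limma interval for each of the 28 genes, in the order of the pathway and separated by role. Abcg1 (red) passed at an adjusted p under 0.05, while the intervals of 8 other genes lie wholly below 0 (Hmgcs1, Mvk, Mvd, Fdft1, Tm7sf2, Msmo1, Scap and Insig2) and that of Stard4 wholly above 0 without passing after adjustment over all genes.

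All 5 genes of SREBP control had small negative differences, with a median of −0.11, and none passed (limma, 2 lower and 0 higher before adjustment). All 5 lay within the enzymes' range of levels, where 63.7% of 7923 genes were negative. Of those 7923 genes 18.7% were lower before adjustment and 39.8% lay lower without overlap. Insig2, an ER anchor that retains SCAP, read 7.40 and 7.44 in Flt3 KO cells, against 7.69 and 7.64 in WT cells. Its difference was −0.25 (SE 0.069, limma adjusted p = 0.13), with a clear gap between the groups. Insig1, the anchor gene that SREBP itself induces, read 9.26 and 9.38 in Flt3 KO cells and 9.50 and 9.36 in WT cells. The Insig1 groups overlapped, and its interval ran from −0.28 to 0.060.

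Scap, the sterol-sensing escort gene, read 9.89 and 9.95 in Flt3 KO cells and 10.05 and 10.03 in WT cells. Its difference was −0.12 (SE 0.051, limma adjusted p = 0.28). Srebf2, the SREBP gene tied most closely to cholesterol synthesis, read 9.97 and 9.99 in Flt3 KO cells and 10.05 and 10.01 in WT cells. Srebf1, whose products favour fatty acid genes, read 8.06 in both Flt3 KO replicates and 8.12 and 8.18 in WT cells. In all 3 genes the Flt3 KO arrays lay just below the WT arrays. The intervals reached from −0.17 to 0.065 for Srebf2 and from −0.24 to 0.064 for Srebf1.

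The LXR and efflux genes differed in sign, and Abcg1 was the gene that passed. ABCG1 exports sterol to high-density lipoprotein particles. Abcg1 read 8.30 and 8.32 in Flt3 KO cells, against 8.63 and 8.61 in WT cells. The replicates lay within 0.022 of each other in both genotypes and the groups were well apart. Abcg1 fell by 0.31 on the log2 scale, a 1.24-fold lower signal (SE 0.060, 95% interval −0.45 to −0.17, limma adjusted p = 0.049). The call lay at the edge of the threshold. It was lost under quantile normalization and without the intensity trend (limma adjusted p = 0.068 and 0.14). It was also lost with all probe sets tested and with the replicate number as a block (limma adjusted p = 0.097 and 0.087). The difference itself stayed between −0.35 and −0.26 over the 13 alternatives, those with an array left out included.

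Nr1h3, which encodes LXRα, read 7.01 and 7.67 in Flt3 KO cells and 6.98 and 6.80 in WT cells. A single array set this difference: Flt3 KO replicate 2 was high and Flt3 KO replicate 1 was close to WT replicate 1. The difference was 0.45 (SE 0.19, limma adjusted p = 0.30), and without Flt3 KO replicate 2 it was 0.12. Abca1, the exporter that loads lipid-poor apolipoproteins, was likewise highest in Flt3 KO replicate 2, with 6.60 and 6.90 in Flt3 KO cells and 6.62 and 6.42 in WT cells, and its groups overlapped. Its difference was 0.23 (SE 0.12, limma adjusted p = 0.39), and 0.080 without Flt3 KO replicate 2. The summed monocyte and macrophage markers were also highest in Flt3 KO replicate 2, at 12.87 against 12.50 in Flt3 KO replicate 1 and 12.33 and 12.21 in WT cells. Their part in the Nr1h3 and Abca1 values was not tested. Mylip, whose product marks lipoprotein receptors for degradation, read 9.97 and 10.12 in Flt3 KO cells and 9.92 in both WT replicates, a difference of 0.12 (limma adjusted p = 0.37) that was 0.048 without Flt3 KO replicate 2.

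**Figure D4:**
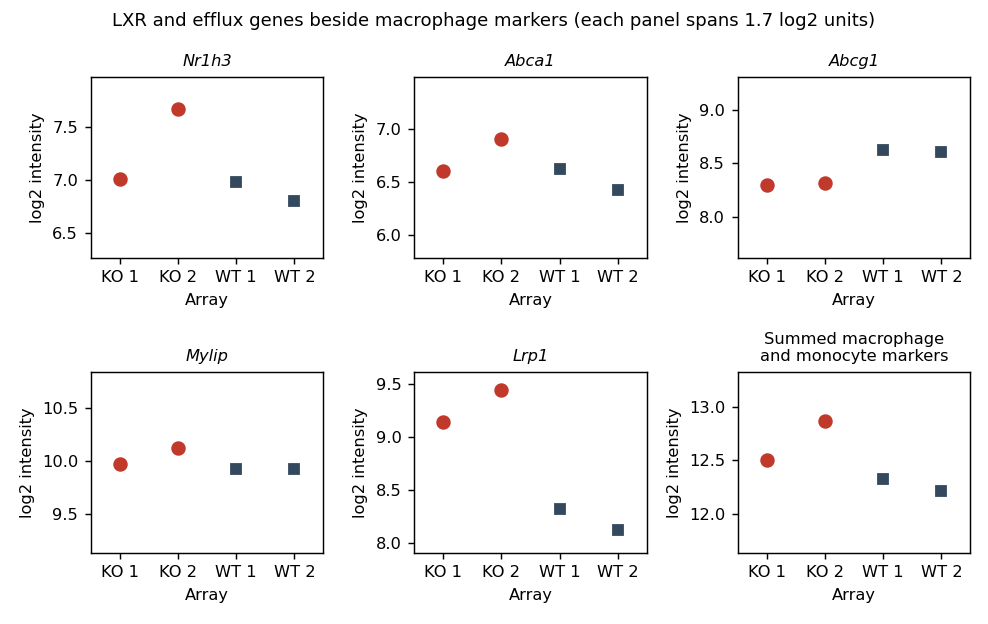
The log2 intensity of Nr1h3, Abca1, Abcg1, Mylip and the lipoprotein receptor gene Lrp1 on each array, beside the summed intensity of 16 monocyte and macrophage markers; every panel spans 1.7 log2 units, with Flt3 KO arrays left of WT arrays. Nr1h3, Abca1 and the marker sum (12.87) are highest in Flt3 KO replicate 2, whereas Abcg1 is low in both Flt3 KO replicates (8.30 and 8.32) against WT (8.63 and 8.61).

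The remaining genes move or modify sterol. Stard4, a soluble carrier of cholesterol between membranes and an SREBP target, read 6.84 and 6.95 in Flt3 KO cells and 6.73 and 6.66 in WT cells. Its difference of 0.20 (SE 0.082, limma unadjusted p = 0.044, adjusted p = 0.27) ran opposite to the enzymes. Ch25h, the hydroxylase that makes an immune-active oxysterol, read 4.08 and 4.11 in Flt3 KO cells and 3.86 and 3.95 in WT cells. Both Ch25h groups lay far below the array-wide median of 5.89, and its difference was 0.19 (limma adjusted p = 0.37). Its mean level was at percentile 14.6 of all genes, and whether that lies above background could not be set.

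Array values did not overlap between genotypes in 20 of the 28 genes, with Flt3 KO lower in 15 and higher in 5. Over all genes 25.3% were lower and 21.9% higher without overlap. The share of the cholesterol genes that lay lower was 53.6%, and among the 7923 genes in the enzymes' range of levels it was 39.8%. The median absolute difference of the 28 genes was 0.14 between genotypes, against 0.051 between the Flt3 KO replicates and 0.099 between the WT replicates. Over all genes these values were 0.097, 0.092 and 0.092. The genotype value compares means of 2 arrays, while the replicate values compare single arrays.

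Neighbouring pathways were read from 6 lists with 83 genes, of which 76 were measured; 1 rose and 1 fell, so 2.63% were called, near the background of 2.39%. The gene that rose was Lrp1, which encodes a large endocytic lipoprotein receptor that macrophages also express. Lrp1 read 9.14 and 9.45 in Flt3 KO cells, against 8.32 and 8.13 in WT cells, a difference of 1.07 (SE 0.11, limma adjusted p = 0.0076). Both Flt3 KO arrays were well above both WT arrays, and with an array left out the difference was 0.92 to 1.22. The summed monocyte and macrophage markers also stood higher on both Flt3 KO arrays (12.50 and 12.87) than on the WT arrays (12.33 and 12.21). Their part in the Lrp1 values was not tested. The other 20 of 21 genes of sterol uptake and movement did not pass. Before adjustment 3 of the 21 (14.3%) were higher and 0 lower in limma, against 6.95% and 10.1% of all genes. Beside Lrp1 these were Scarb1 (0.34, limma adjusted p = 0.083) and Stard10 (0.41, limma adjusted p = 0.064), both named after their values were seen.

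The gene that fell was Pltp, an LXR target that transfers phospholipid between lipoproteins. Pltp read 11.35 and 11.39 in Flt3 KO cells and 11.78 and 11.79 in WT cells, a difference of −0.41 (SE 0.041, limma adjusted p = 0.0069). With any single array left out its difference was −0.43 to −0.39. The call was lost without the intensity trend (limma adjusted p = 0.086). Among 7 measured LXR partners and targets the other 6 did not pass.

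Fatty acid synthesis, the arm driven by Srebf1, had 0 of 14 genes called by limma, with 2 higher and 2 lower before adjustment and a median of −0.041. The lowest p-values were those of the elongase gene Elovl6 (−0.27, limma adjusted p = 0.12) and the desaturase gene Fads2 (−0.19, limma adjusted p = 0.18). The isoprenoid branch, which uses mevalonate products for ubiquinone, dolichol and protein prenylation, had 0 of 13 called, with 1 higher and 3 lower before adjustment. Its leading genes were Coq2, an enzyme of ubiquinone synthesis (−0.25), and Fnta, a farnesyltransferase subunit (−0.24).

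The SREBP-cleaving and sterol-dependent degradation machinery also had 0 of 13 called, with 0 higher and 2 lower before adjustment. Ufd1, a cofactor in extraction of proteins from the ER, had a difference of −0.23 (limma adjusted p = 0.089), and the ER lipid-raft gene Erlin1 had −0.15. Of 8 oxysterol and ester enzymes 0 were called, and 0 had an unadjusted p under 0.05 in limma. The epoxide hydrolase gene Ephx1 (0.26) and the oxysterol hydroxylase gene Cyp7b1 (0.11) had the lowest p-values of that list. The Ephx1 difference lay between 0.027, when Flt3 KO replicate 2 was left out, and 0.49, when Flt3 KO replicate 1 was, and that of Cyp7b1 was 0.051 without WT replicate 2 and 0.17 without WT replicate 1.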

How the data were processed

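The authors deposited processed probe set intensity values on a linear scale for 4 arrays; how background was corrected, probes summarised and arrays scaled is not given in the sources used here. Biotin-labelled targets were made with an Ambion kit, per the labels' protocols. The median intensity was 57.2 and 56.2 in the Flt3 KO arrays and 55.1 and 55.3 in the WT arrays. For arrays, their number limits the precision.

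Of 30177 probe sets, 21789 had 1 gene symbol, 1621 several and 6767 none in the platform annotation. The brightest single-symbol probe set was kept per gene (19938 genes), and log2 was taken with no constant and no filter. Flt3 KO was compared with WT in limma 3.58.1 (R 4.3.3; lmFit, eBayes with trend) without covariates, with Benjamini-Hochberg adjustment over 19938 genes. An exact two-sided permutation test of 2 against 2 cannot go below 0.333 and was not used. The fit was tested on simulated data with differences of 0.5 and 1 in either direction, of which 86% to 100% were recovered. Each of the 28 cholesterol genes differed by less than 0.5, so recovery at the sizes seen here was not tested.

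The genes and lists were chosen with earlier results of these data known. The genes named were all measured members, Flt3, pDC markers, other markers past the threshold or brightest of their list, and from each neighbouring list up to 4 genes past the threshold or else the 2 with the lowest p. Alternatives covered scaling, trend, robust variance, probe set averaging, an added constant, a level filter, all probe sets, the replicate number as a block, and each array left out. Motifs were searched in RefSeq promoters with pandas 2.3.3.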

Additional observations from a re-analysis of the deposited data

How the results depend on the processing

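No detection calls came with the values used here, so signal over background could not be set per gene. The count of cholesterol genes called lower, 1, became 0 under quantile normalization and without the intensity trend. It was also 0 with all probe sets tested and with the replicate number as a block (Abcg1 −0.31, limma adjusted p = 0.087). Called higher were 0 in every alternative that kept all 4 arrays. Replicate numbers were not a known pairing: deviations of replicate 1 correlated with r = −0.017 over genes between genotypes, and the block gave 375 calls over all genes. Of all genes, 215 were higher and 261 lower; centring on array medians gave 217 higher and 452 lower, no trend 61 and 47, all probe sets 116 and 103, and the filter on level 440 lower, with 0 to 45 higher and 0 to 9 lower when an array was left out. Genes of neighbouring pathways called higher went to 3 under quantile normalization and under the level filter. These were Lrp1, Scarb1 and Stard10, the last 2 named after their values were seen. Those called lower went to 2 under the level filter and to 0 without trend. The median of the cholesterol genes was −0.12 after centring, −0.031 after quantile normalization and −0.10 to −0.062 with an array left out. For the enzymes it was −0.16, −0.10 and −0.12 to −0.076, and −0.11 with 16 added before log2. The Flt3 difference was −2.28 to −2.13 with an array left out, and its adjusted p was 0.063 and 0.074 without WT replicate 1 and 2. Idi1, Fdps, Ebp and Cyp51, all close to 0, turned sign in 4, 3, 3 and 1 of 13 alternatives; the other 24 genes did not, with Ch25h absent under the level filter. With an array left out, the differences of 17 of the 28 genes moved by over 1.5 times or changed sign. The causes were not tested.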
